A study of Mus musculus with 32 samples.

Results

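The 78 mitochondrial ribosomal protein genes of the mouse were followed across brain, heart, kidney and liver in RNA pulled down with an antibody against m6A (N6-methyladenosine, an adenosine that carries a methyl group). They were taken by name: every gene of the m6A table whose symbol begins with Mrps or Mrpl and a number, pseudogenes left out, which gave 78 of 27179 genes. Of these, 29 carry the name Mrps, given to proteins of the small subunit, and 49 the name Mrpl, given to proteins of the large subunit. The organs came from mice and were either flash frozen or fixed in 10% formalin and embedded in paraffin (FFPE). The labels give no strain, age or number of animals. RNA was isolated with Trizol, after removal of the paraffin from FFPE tissue, sheared for 20 min by ultrasound and immunoprecipitated, and total RNA libraries were made with depletion of ribosomal RNA. The labels list 2 m6A runs for each organ and preservation, and the table holds 1 column for each, so that 8 libraries without replicates were compared. A level is the log2 of the normalized read count of a gene in the pulled-down RNA. Transcript abundance and methylation were not separated, because input RNA was not analysed here.

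Mitochondria carry a ribosome of their own, which translates the few membrane proteins that the mitochondrial genome encodes, all of them subunits of the oxidative phosphorylation complexes. Its RNA is transcribed in the organelle, whereas its proteins are made from nuclear genes, translated in the cytosol and imported. Some of these proteins have counterparts in the ribosomes of bacteria, and others are found only in mitochondria. Heart muscle is densely packed with mitochondria, and liver, kidney and brain also depend on oxidative phosphorylation.

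Total gene counts ran from 9603050 to 21523379 per library, of which the 78 genes took 2947 (FFPE liver) to 13199 (frozen brain). The lowest count of any of the 78 genes was 3, for Mrps33 in FFPE liver, and the highest 790, for Mrpl12 in frozen kidney. All 78 genes passed the filter on low values, a log2 level above 0 in at least 2 libraries, together with 14864 genes in all. The organ labels matched their defining markers: all 6 cardiomyocyte markers were called higher in heart, all 6 hepatocyte markers in liver, and all 6 neuron and 5 glia markers in brain. The frozen heart library held more transcripts of neurons and glia than the FFPE heart library for 9 of 11 markers. On the linear scale of the normalized counts, the neuron markers summed to 28.8 and the glia markers to 30.4 in frozen heart. The sums were 15.8 and 10.1 in FFPE heart and 793 and 1162 in frozen brain. In liver and kidney the neuron sums were 1.80 to 4.26, and the glia sums reached 26.0 in frozen liver and 22.3 in FFPE kidney. Xist, the RNA that coats the inactive X chromosome of females, had log2 levels of 7.56 to 9.47 in the FFPE libraries and -2.64 to 0.28 in the frozen ones. The Y-linked genes Ddx3y, Eif2s3y, Kdm5d and Uty were present in both, at 2.21 to 3.35 in the FFPE and 2.71 to 4.89 in the frozen libraries, so Xist and the Y-linked genes were both detected in FFPE tissue. The labels do not say which animals gave which tissue, and preservation and donor cannot be told apart.

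Promoters of 69 of the 78 genes were found among the RefSeq promoters (GRCm38.p6, 250 bases before to 50 after the start site), and 5 are shown here. Mrpl33, Mrpl51 and Mrpl9 were among the genes called higher in heart, Mrpl12 was among the furthest below in brain, and Mrps11 faces another gene of the family at close range. Letters of 4 motifs were searched on both strands: CCGGAAG for ETS factors, GCATGCG as part of the NRF1 motif, AAGATGG for YY1 and GGGCGG for SP1. Capitals mark each match. The windows are chr5:31613701-31614000 (Mrpl33), chr6:125191950-125192249 (Mrpl51), chr3:94443086-94443385 (Mrpl9), chr11:120484387-120484686 (Mrpl12) and chr7:78782881-78783180 (Mrps11), all on the + strand.
Mrpl33: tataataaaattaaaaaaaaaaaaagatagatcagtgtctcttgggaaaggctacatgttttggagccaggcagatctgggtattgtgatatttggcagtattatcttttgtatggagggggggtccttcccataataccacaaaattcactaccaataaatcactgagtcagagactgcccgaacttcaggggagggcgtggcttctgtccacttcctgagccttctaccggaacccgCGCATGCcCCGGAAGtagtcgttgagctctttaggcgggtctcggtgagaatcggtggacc
Mrpl51: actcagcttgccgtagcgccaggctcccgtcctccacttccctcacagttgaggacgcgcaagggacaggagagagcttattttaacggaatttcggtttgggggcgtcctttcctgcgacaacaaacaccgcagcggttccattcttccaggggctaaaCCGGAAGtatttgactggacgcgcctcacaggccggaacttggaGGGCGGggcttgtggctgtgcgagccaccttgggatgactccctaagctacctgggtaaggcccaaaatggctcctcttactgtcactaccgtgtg
Mrpl9: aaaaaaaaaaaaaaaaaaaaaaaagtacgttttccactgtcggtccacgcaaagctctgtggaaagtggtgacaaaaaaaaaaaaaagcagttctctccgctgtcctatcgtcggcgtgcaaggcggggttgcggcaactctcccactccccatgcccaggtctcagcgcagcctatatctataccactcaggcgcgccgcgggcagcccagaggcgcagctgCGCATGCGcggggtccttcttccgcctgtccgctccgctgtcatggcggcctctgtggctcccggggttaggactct
Mrpl12: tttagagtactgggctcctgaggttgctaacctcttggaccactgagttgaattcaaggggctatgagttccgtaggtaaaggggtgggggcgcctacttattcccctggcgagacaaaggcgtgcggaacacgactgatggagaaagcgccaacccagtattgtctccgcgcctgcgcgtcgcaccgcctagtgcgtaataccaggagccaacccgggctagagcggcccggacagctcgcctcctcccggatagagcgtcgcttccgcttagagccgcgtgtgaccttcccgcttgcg
Mrps11: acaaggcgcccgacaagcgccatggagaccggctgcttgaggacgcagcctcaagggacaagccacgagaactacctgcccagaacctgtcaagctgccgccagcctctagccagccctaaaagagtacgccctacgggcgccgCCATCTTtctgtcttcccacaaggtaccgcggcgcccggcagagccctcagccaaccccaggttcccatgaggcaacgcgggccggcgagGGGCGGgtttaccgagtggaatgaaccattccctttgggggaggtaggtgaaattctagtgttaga
The Mrpl33 window held an NRF1 match 11 bases before the start site and an ETS match 3 bases before it. In the Mrpl9 window the NRF1 letters lay on both strands at nearly the same place, 27 and 26 bases before the start. Mrpl51 had its ETS match 90 bases and its SP1 match 46 bases before the start. Mrpl12 held none of the 4 motifs. ETS letters were found in 26 of the 69 promoters (37.7%), against 17.6% of 11112 other tested coding genes. YY1 letters were found in 13 (18.8%, against 7.92%), NRF1 letters in 8 (11.6%, against 6.69%) and SP1 letters in 34 (49.3%, against 66.6%). Among the 10 genes called higher in heart that had a promoter, 4 held ETS, 2 NRF1, 1 YY1 and 5 SP1 letters, and among the other 59 the numbers were 22, 6, 12 and 29. The start of another coding gene lay on the opposite strand within 1000 bases for 24 genes (34.8%), against 11.5% of tested coding genes. Mrps11 and Mrpl46 were such a pair within the family, with start sites 42 bases apart. Mrpl47 faced Ndufb5, a subunit of complex I, Mrpl43 faced Twnk, the helicase that unwinds mitochondrial DNA, and Mrps12 faced Sars2, the mitochondrial seryl-tRNA synthetase. These partners are not typical of the list, which also held Tmem63b, Tcp1, Klc4, Hira and Gga3. Among 20 facing pairs whose other gene was tested and outside the family, 8 family genes were called lower in brain. Of their partners, 2 were called lower and 2 higher there. Over all tested genes, 26.4% were called lower in brain and 30.2% higher.

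By log2 level, the family tended to be lowest in brain and highest in heart or liver. The median log2 level was 1.57 in FFPE brain and 2.30 in frozen brain, 2.62 and 2.64 in FFPE and frozen heart, 2.38 and 2.59 in liver, and 2.21 and 2.48 in kidney. The median of all tested genes ran the other way, from 2.28 and 2.37 in FFPE and frozen brain to 2.06 and 1.94 in liver. In both preservations, 24 genes were highest in heart, 19 in liver, 2 in kidney (Mrpl50 and Mrps26) and 1 in brain (Mrpl19), and 38 were lowest in brain. The remaining genes had a different highest organ in frozen and FFPE tissue. No share of all tested genes was computed for both preservations together. Taken singly, 33 genes in frozen and 38 in FFPE tissue were highest in heart, against 18.9% and 21.0% of all tested genes. In liver 27 and 30 were highest, against 24.4% and 26.9%, and in brain 41 and 53 were lowest, against 27.7% and 30.7%. Across the 8 libraries, the profile of a gene correlated with the mean profile of the family with a median Pearson r of 0.68, from -0.47 for Mrpl19 to 0.97 for Mrpl16, as a description over libraries that share scaling and depth. The correlation was above 0.5 for 55 genes and below 0 for 2, Mrpl19 and Mrps25. The non-members nearest to the mean profile were Atp5e (r = 0.99), a subunit of ATP synthase, and Uqcrq, Ndufb6 and Ndufa2 of complexes III and I. The nearest 10 also held Rpl22 and Rps4x of the cytosolic ribosome, Churc1 and the unnamed models Gm9385 and Gm1818.

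**Figure D1:**
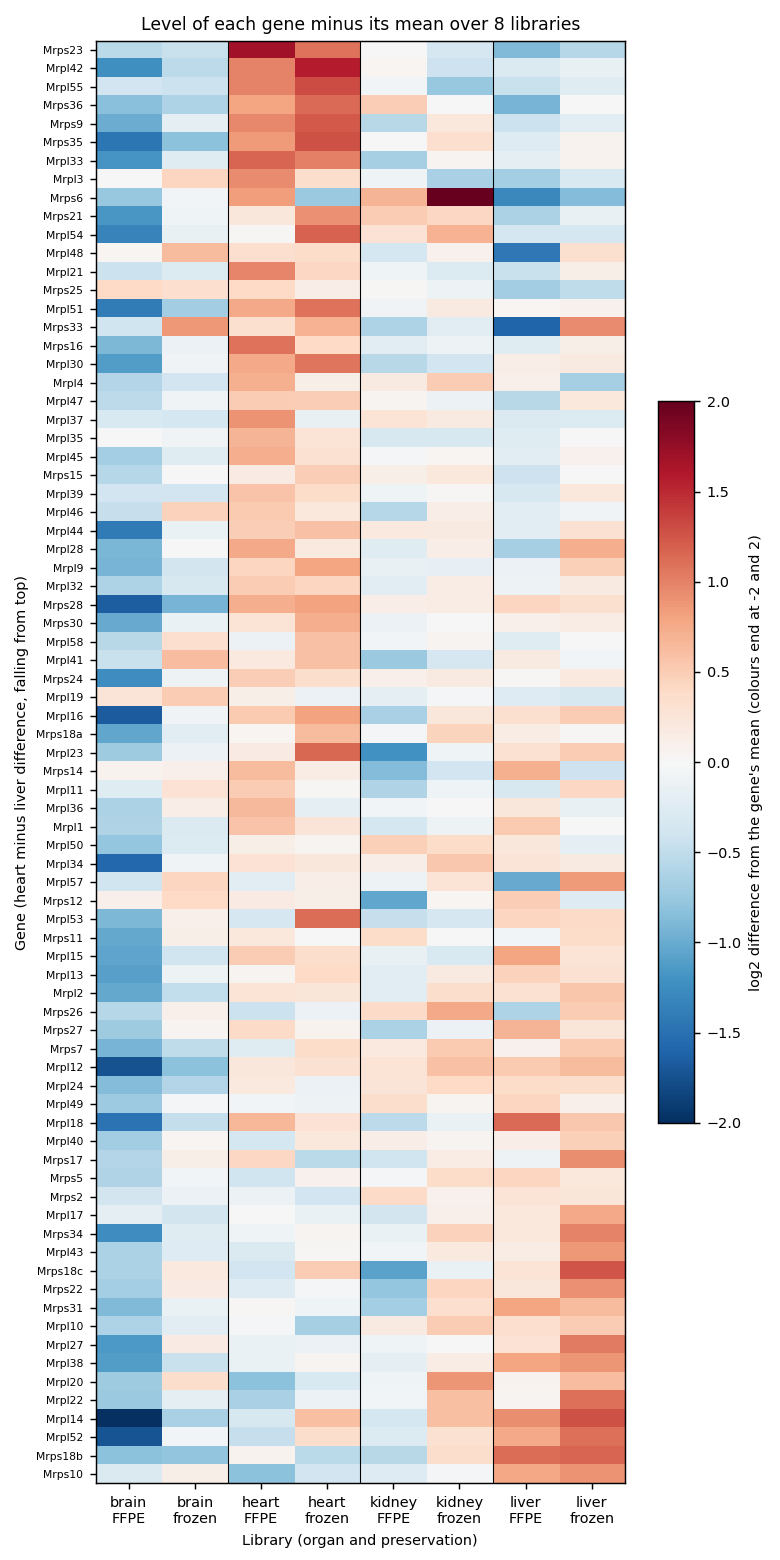
Level of each of the 78 genes in each of the 8 libraries minus the mean of that gene over the libraries (colour, log2), with genes (rows) ordered by the heart minus liver difference. The brain columns are blue for most rows, genes at the top such as Mrps23 and Mrpl42 are red in heart, and genes at the bottom such as Mrpl14 and Mrps18b are red in liver.

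Between the highest and the lowest of the 8 libraries, the 78 genes had a median range of 1.69 log2 units, against 2.78 for all tested genes. Mrps6 had the widest range at 3.47, followed by Mrpl14 at 3.37. Mrps2, a protein of the small subunit with a bacterial counterpart, had the narrowest at 0.76, with Mrpl19 at 0.83 and Mrpl39 at 0.96. As a share of all counts outside ribosomal RNA genes, the 78 genes took between 0.0966% (FFPE liver, exact 95% interval 0.0932 to 0.100) and 0.236% (frozen kidney, 0.231 to 0.240). The intervals cover counting error only. By this measure frozen kidney was highest and both liver libraries were below both heart libraries. Liver was also below brain in each preservation, with 0.0966% against 0.113% in FFPE and 0.134% against 0.165% in frozen tissue. This order differs from that of the medians, where brain was lowest. The scaled library size behind the log2 values ranged from 0.426 times the summed gene counts in FFPE liver to 2.24 times in FFPE brain, so the choice of scaling sets where 0 lies between organs. Scaling by total gene counts moved the median difference of all tested genes from 0.07 to 1.29 for brain and from -0.18 to -1.38 for liver. With that scaling the median difference of the 78 genes was 0.61 in brain and -1.04 in liver. The organ results below are therefore also given relative to the median of all tested genes, which such a scaling leaves as it is.

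By log2 level, brain had the lowest median of the family in each preservation. For each organ, its 2 libraries were compared with the mean of the other 3 organs in an additive limma fit over all 14864 genes, with Benjamini-Hochberg adjusted p under 0.05 as a call. In brain, 30 of the 78 genes were called lower and 0 higher, with 1 of the 78 higher at an unadjusted p under 0.05. Over all tested genes, 26.4% were called lower and 30.2% higher. The median difference of the 78 genes was -0.61, against 0.07 for all tested genes, and 68 of 78 differences were negative, against 7064 of 14864. For 23 genes (29.5%) both brain libraries were below all 6 others, against 15.9% of all tested genes. Brain tissue also stood apart in its cells, with a median difference of 7.23 for neuron and 6.71 for glia markers and of -2.50 for endothelial markers, and their part in the result was not tested. In bulk tissue, fewer cells of a type and less RNA per cell cannot be told apart.

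Mrpl14, a large subunit protein with a bacterial counterpart, was furthest below in brain. In FFPE and then frozen tissue, its log2 level was -0.22 and 1.23 in brain, 1.53 and 2.48 in kidney, 1.57 and 2.48 in heart, and 2.81 and 3.16 in liver. Both brain libraries were below all 6 others, and the FFPE library lay below the frozen one in each organ. The fitted difference was -1.83 ± 0.30 (SE, adjusted p = 0.00102). Mrpl12, which forms the flexible stalk that recruits translation factors, stood at 2.85 and 3.77 in FFPE and frozen brain. Its other levels were 4.81 and 4.88 in heart, 5.10 and 5.22 in liver, and 4.86 and 5.17 in kidney. The 6 libraries of the other organs lay within a narrow band above both brain libraries, and the difference was -1.70 ± 0.19 (SE, adjusted p = 1.13e-04).

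Mrps28 of the small subunit had levels of -0.07 and 0.64 in FFPE and frozen brain, against 2.31 and 2.38 in heart, 2.01 and 1.90 in liver, and 1.70 and 1.73 in kidney. Within the other organs its FFPE and frozen libraries were close, and both brain libraries were lowest (-1.72 ± 0.32 SE, adjusted p = 0.00177). The remaining 3 genes with the largest differences were Mrps35, Mrpl51 and Mrpl18, a protein of the central protuberance, at -1.51 ± 0.20, -1.39 ± 0.20 and -1.30 ± 0.30 (SE). The call of Mrpl18 was lost without the FFPE brain library (-0.71, adjusted p = 0.123), and the other 5 were called whichever of the 8 libraries was left out. Without FFPE brain fewer of the 78 genes were called lower, and their share was below that of all tested genes. The median difference was then -0.36, against 0.15 for all tested genes. Fewer were also called lower without FFPE kidney, where the medians were -0.61 and 0.08. With total gene counts as scaling, 0 of the 78 genes were called lower in brain and 12 higher, against 1558 and 8234 of all 14864 tested genes. With counts outside ribosomal RNA genes the numbers were 9 and 4, against 2815 and 6502, beside 30 and 0 in the main fit. Under both scalings each share of the family was below that of all tested genes. Relative to the median of all tested genes, the family stood at -0.68 in brain under each of these scalings. Without a filter on low values that figure was -0.037.

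Mrpl19 ran against the family. Its log2 level was 2.52 and 2.77 in FFPE and frozen brain, 2.38 and 2.15 in heart, 2.01 and 1.94 in liver, and 2.08 and 2.23 in kidney. Both brain libraries were highest, but the difference of 0.52 was not called (adjusted p = 0.100). Mrpl19 overlaps Gcfc2, which stood at 1.23 and 1.18 in brain and at 0.66 to 1.76 elsewhere. Mrps25 overlaps Nr2c2 on the opposite strand. Nr2c2 stood at 5.09 and 4.85 in FFPE and frozen brain and at 3.54 and 3.25 in liver. Strand use in counting is not stated, so reads of the overlapping stretches may not be told apart. Mrps25, whose levels were 3.21 and 3.14 in brain and 3.21 and 2.94 in heart, fell to 2.83 and 2.70 in kidney and 2.12 and 2.30 in liver. Only its liver difference was called among the 4 organs (-0.79 ± 0.21 SE, adjusted p = 0.0124), and without FFPE liver it was -0.63 (adjusted p = 0.101).

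Heart had the highest median. There, 12 of the 78 genes were called higher and 1 lower, against 15.9% and 18.1% of all tested genes. The share of the family called higher was near that background. The median difference was 0.45, against -0.15 for all tested genes, with 58 of 78 positive, against 43.0% of all tested genes. For 21 genes (26.9%) both heart libraries were above all 6 others, against 11.3% of all tested genes. Relative to the median of all tested genes the family stood at 0.60 in heart, and at 0.30 when no filter on low values was used. It stood at 0.77 without the frozen heart library, which had the higher neuron and glia sums, and at 0.28 without the FFPE heart library. When either of these libraries was left out, fewer genes were called higher, at a share near that of all tested genes. Markers of other cell types also rose in heart: 5 of 5 endothelial markers (median 2.43), 5 of 5 fibroblast markers (median 3.01) and 3 of 4 tested blood and immune markers (median 2.64) were called higher, and their part in the result was not tested.

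Mrps23, a small subunit protein found only in mitochondria, was furthest above. Its log2 level was 4.46 and 3.86 in FFPE and frozen heart, 2.24 and 2.34 in brain, 1.89 and 2.21 in liver, and 2.79 and 2.45 in kidney. The heart libraries were above all others by more than 1 log2 unit (1.84 ± 0.24 SE, adjusted p = 6.08e-04), and the gene was called under every alternative tried for it. Mrps23 (chr11:88194106-88211507) overlaps Cuedc1 on the same strand, and Cuedc1 was highest in heart too, at 4.50 and 4.21, against 1.29 to 3.41 elsewhere. Reads from the overlapping stretch cannot be told apart.

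Mrpl42, another protein found only in mitochondria, stood at 3.84 and 4.43 in FFPE and frozen heart. Its levels were 1.63 and 2.33 in brain, 2.57 and 2.71 in liver, and 2.89 and 2.44 in kidney, so heart was above every other library (1.71 ± 0.26 SE, adjusted p = 0.00140). Mrpl33, whose promoter above holds NRF1 and ETS letters at the start site, had levels of 3.76 and 3.60 in heart and between 1.42 and 2.66 in the other organs. Its difference was 1.44 ± 0.27 (SE, adjusted p = 0.00352), and without FFPE heart 1.05 (adjusted p = 0.0884). Mrps35 of the small subunit, low in brain, was at 3.71 and 4.13 in heart, 2.60 and 2.93 in liver, and 2.88 and 3.19 in kidney (1.41 ± 0.20 SE, adjusted p = 8.58e-04). Mrpl51 was also highest in heart, with 4.03 and 4.36 in heart, 3.30 and 3.35 in liver, 3.19 and 3.44 in kidney, and 1.87 and 2.57 in brain.

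Mrps9, with a bacterial counterpart, was called at 1.45 ± 0.23, and Mrpl55 of the central protuberance at 1.53 ± 0.32 (SE), which without frozen heart was 1.29 (adjusted p = 0.0933). Mrps36, now known to encode a subunit of the 2-oxoglutarate dehydrogenase complex of the citric acid cycle despite its name, was among those called higher, at 1.28. The others were Mrpl30, Mrps28, Mrpl3 and Mrpl9, at 0.82 to 1.22. Mrpl20 was the gene called lower in heart, at 1.48 and 1.99 against 1.59 to 3.17 elsewhere. The frozen heart library was above FFPE brain, so the groups overlapped, and the call (-0.75, adjusted p = 0.0470) was lost without any 1 of 7 libraries, where the adjusted p was 0.0551 to 0.275. With total gene counts as scaling, 1 gene was called higher and 2 lower in heart, against 1107 and 3508 of all 14864 tested genes.

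**Figure D2:**
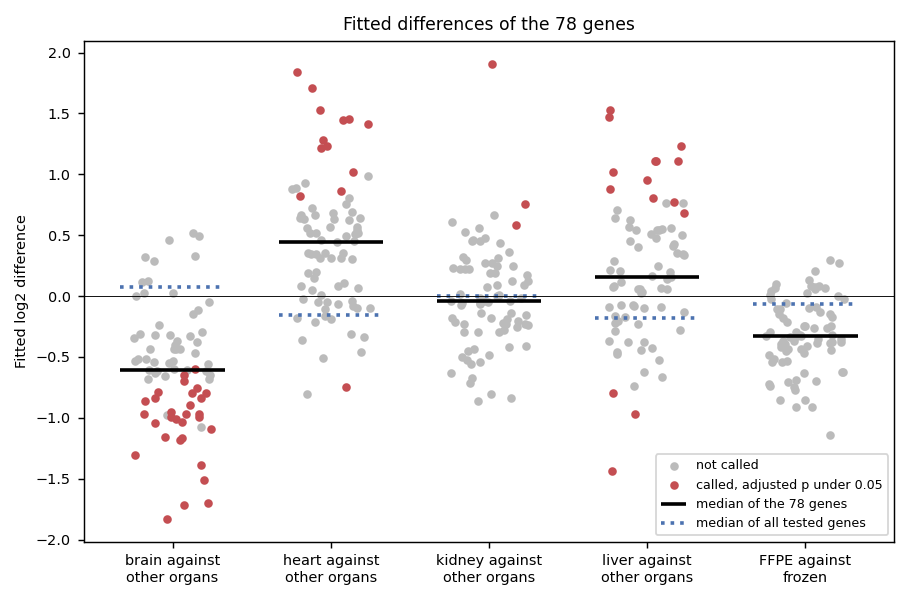
Fitted log2 difference of each of the 78 genes (points) for each organ against the mean of the other 3 and for FFPE against frozen tissue. Red points were called, and the black and dotted lines give the median of the 78 genes and of all tested genes, which are -0.61 and 0.07 in brain and 0.45 and -0.15 in heart.

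In liver, 12 of the 78 genes were called higher and 3 lower, against 20.1% and 27.2% of all tested genes. Both shares of the family were below that background. For 8 genes (10.3%) both liver libraries were above all 6 others, against 14.996% of all tested genes. The median difference was 0.16, against -0.18 for all tested genes. Relative to that median the family stood at 0.34, and at -0.21 when no filter on low values was used, so the sign rests on the filter. Under total-count scaling the calls were 0 higher and 34 lower, against 1143 and 8628 of all 14864 tested genes. With counts outside ribosomal RNA genes they were 0 and 30, against 1630 and 8007. Each of these shares of the family was below that of all tested genes. Without FFPE liver fewer genes were called either way, and without FFPE kidney fewer were called higher. These shares were below those of all tested genes in the same fits.

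Mrps18b was furthest above in liver. Its log2 level was 2.01 and 2.05 in FFPE and frozen liver, 0.07 and 0.09 in brain, 0.95 and 0.35 in heart, and 0.33 and 1.23 in kidney. Both liver libraries were above all others (1.52 ± 0.42 SE, adjusted p = 0.0169), and the adjusted p was 0.0994 without FFPE liver, 0.0750 without frozen liver and 0.0523 without FFPE kidney. Vertebrate mitochondria have 3 proteins related to bacterial S18, and Mrps18c was called higher as well, at 1.01, whereas Mrps18a had 2.75 and 2.62 in liver against 2.64 and 3.23 in heart and was not called. The protein of Mrps18a sits in the large subunit.

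Mrpl14, the lowest gene in brain, was at the same time called higher in liver (1.47 ± 0.30 SE, adjusted p = 0.00419), where its 2.81 and 3.16 were above all 6 other libraries. Without FFPE liver its difference was 1.09 (adjusted p = 0.0649). Mrpl18 had 4.56 and 3.97 in FFPE and frozen liver, 4.09 and 3.72 in heart, 1.96 and 2.95 in brain, and 2.91 and 3.30 in kidney. The liver and heart levels overlapped and were above kidney and brain. It was called at 1.11 ± 0.30 (SE), as were Mrpl52 (1.24 ± 0.32), Mrpl38 (1.11 ± 0.22) and Mrps10 (1.11 ± 0.27). Of these 4, Mrpl38 was the one that kept its call whichever library was left out, and without FFPE liver the differences of Mrpl18, Mrpl52 and Mrps10 were 0.65, 0.90 and 0.99 with adjusted p of 0.219, 0.143 and 0.0776. With total gene counts Mrpl18, Mrpl38 and Mrps10 turned to -0.092, -0.091 and -0.096. The other 6 genes called higher were Mrps18c, Mrps31, Mrpl27, Mrps34, Mrpl12 and Mrpl43, at 0.68 to 1.01. Mrps6, Mrps23 and Mrps25 were called lower. The liver call of Mrps6 (-1.44, adjusted p = 0.0433) was lost without either brain library, frozen kidney or either liver library (adjusted p = 0.0623 to 0.205). That of Mrps23 (-0.97, adjusted p = 0.0105) was lost without FFPE liver (-0.67, adjusted p = 0.120) and without both heart libraries (-0.40, adjusted p = 0.261).

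**Figure D3:**
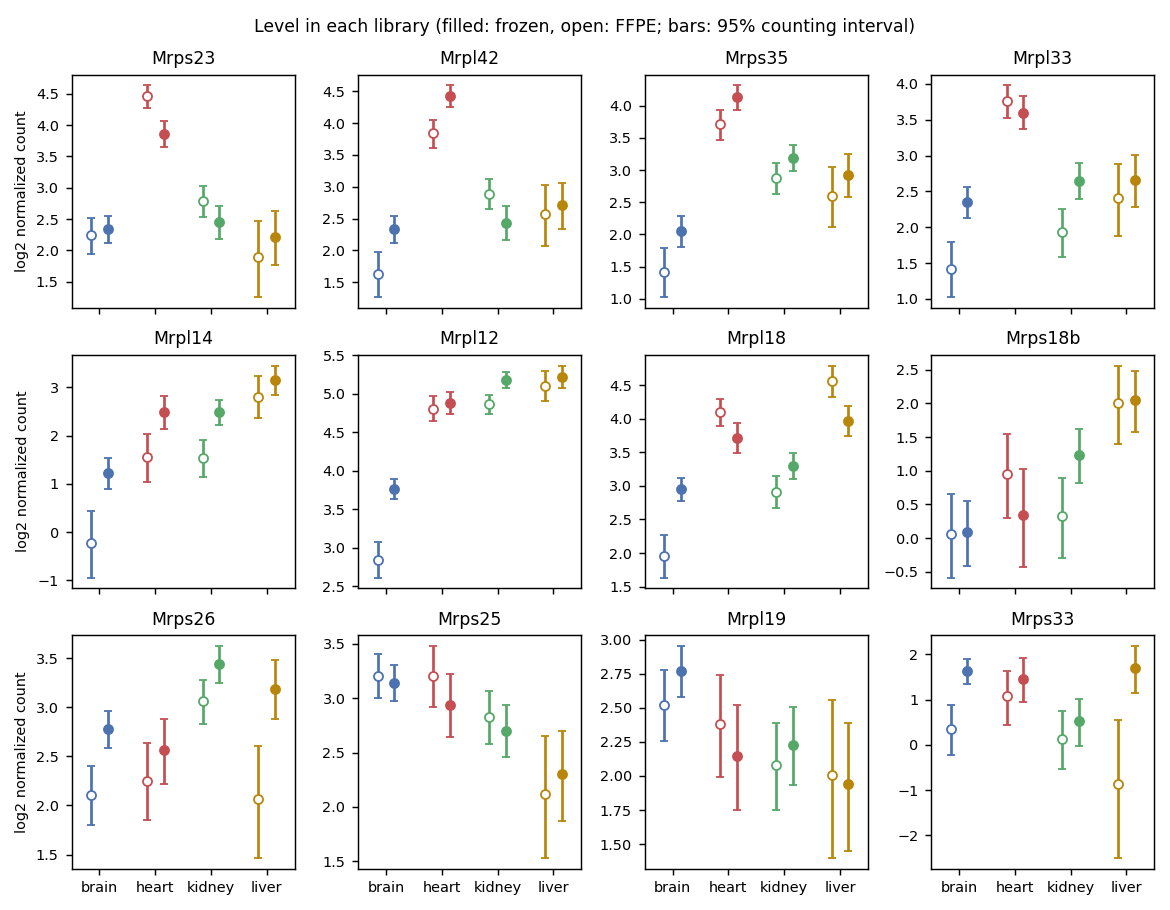
Log2 normalized count (y axis) of 12 of the genes in each organ (x axis), with frozen libraries as filled and FFPE libraries as open points and bars for the 95% counting interval. Mrps23, Mrpl42, Mrps35 and Mrpl33 are highest in heart, Mrpl14 and Mrps18b in liver, Mrps26 in kidney and Mrpl19 in brain, each in both preservations, although the intervals of Mrpl19, Mrps26 and Mrps18b overlap between organs in at least 1 preservation.

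Kidney differed little from the other organs. There 3 of the 78 genes were called higher and 0 lower, with 4 lower at an unadjusted p under 0.05, against 16.1% called higher and 13.5% lower over all tested genes. The median difference was -0.041, against 0.0020 for all tested genes. The genes called higher were Mrps6, Mrps26 (0.76 ± 0.24 SE, adjusted p = 0.0433) and Mrpl12 (0.58 ± 0.19 SE, adjusted p = 0.0487). Mrps26 stood at 3.06 and 3.44 in FFPE and frozen kidney, 2.11 and 2.78 in brain, 2.25 and 2.56 in heart, and 2.06 and 3.19 in liver. Frozen liver lay above FFPE kidney, so the groups overlapped. The call of Mrps26 was lost without either brain library, frozen heart or either kidney library (adjusted p = 0.0769 to 0.411). That of Mrpl12 was lost without FFPE brain, frozen heart, either kidney library or frozen liver (adjusted p = 0.0643 to 0.315). Without both heart libraries the family stood 0.12 above the median of all tested genes, against -0.043 with them.

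Mrps6 had the largest difference of the 78 genes in kidney. Its log2 level was 2.96 and 4.45 in FFPE and frozen kidney, 1.52 and 2.22 in brain, 3.11 and 1.53 in heart, and 0.98 and 1.40 in liver. Frozen kidney was far above every other library, but FFPE heart lay above FFPE kidney. The kidney difference was 1.91 ± 0.50 (SE, adjusted p = 0.0212), without frozen kidney 1.09 (adjusted p = 0.353) and without FFPE brain 1.81 (adjusted p = 0.0540). Mrps6 lies at chr16:92058336-92112227 and overlaps, on the same strand, Slc5a3, which encodes a sodium-dependent transporter of myo-inositol, an osmolyte that kidney cells accumulate. Slc5a3 stood at 7.47 and 8.12 in kidney, 5.18 and 4.68 in brain, 4.76 and 3.01 in heart, and 4.10 and 2.71 in liver. Its kidney difference was 3.72 ± 0.39 (SE, adjusted p = 2.39e-04), and like Mrps6 it was higher in FFPE than in frozen heart. The reads of the shared stretch cannot be told apart. In all, 20 of the 78 genes overlap another protein-coding gene of the annotation.

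**Figure D4:**
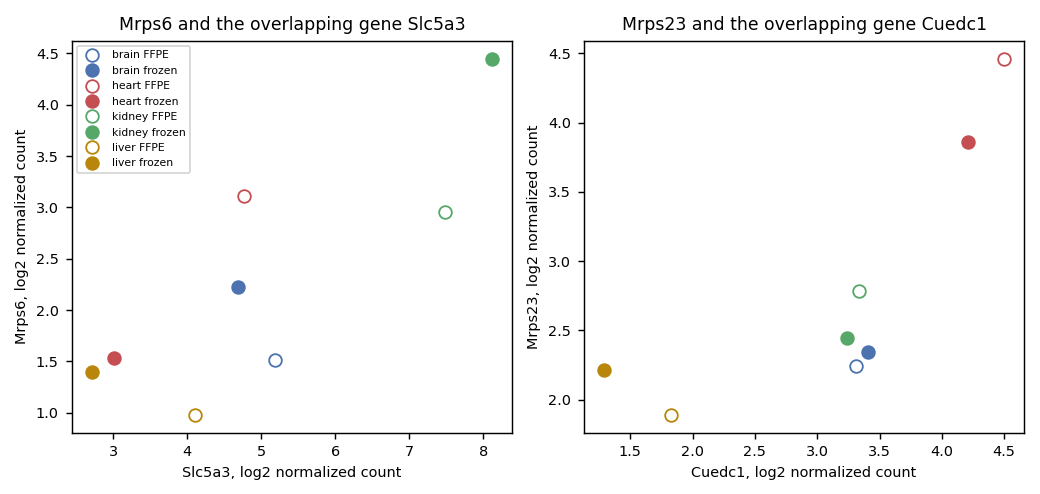
Log2 normalized count of Mrps6 against the overlapping gene Slc5a3 (left) and of Mrps23 against Cuedc1 (right), 1 point per library, coloured by organ, with filled points for frozen and open points for FFPE tissue. Both genes of the left plot are highest in frozen kidney (4.45 and 8.12), and both of the right plot are highest in FFPE heart (4.46 and 4.50).

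By role in the ribosome, of 46 genes with a bacterial counterpart, 17 were called lower in brain, 7 higher and 1 lower in heart, and 6 higher and 1 lower in liver. Of 29 genes for proteins found only in mitochondria, 12 were called lower in brain, 4 higher in heart, and 5 higher and 2 lower in liver. In both groups the share called lower in brain was above the 26.4% of all tested genes, and the shares called higher in heart and liver were below the 15.9% and 20.1%. The medians in brain were -0.61 and -0.54 and in heart 0.40 and 0.46, in that order. Among the 5 stalk proteins, Mrpl12 and Mrpl54 were called lower in brain, and Mrpl12 was called higher in liver. Mrpl54 stood at 0.84 and 2.03 in FFPE and frozen brain and at 1.83 and 1.82 in liver. In kidney it was at 2.48 and 2.88, and its heart levels were 2.20 and 3.36.

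Of the 8 proteins of the central protuberance, a part of the large subunit, Mrpl18, Mrpl27 and Mrpl38 were called higher in liver. Mrpl18 and Mrpl38 were called lower in brain, and Mrpl55 higher in heart. Over all tested genes, 26.4% were called lower in brain, 15.9% higher in heart and 20.1% higher in liver. The role lists given here hold 5 to 9 genes, and none was tested against these shares. Around the exit of the nascent chain, Mrpl24, Mrpl44 and Mrps30 of 9 genes were called lower in brain, and 0 were called in heart or liver (median 0.66 in heart). Mrps30, whose protein sits in the large subunit, stood at 1.34 and 2.22 in brain against 2.62 and 3.06 in heart. Mrpl45, which lies at the exit near the inner membrane, stood at 1.98 and 2.42 in brain and 3.38 and 2.97 in heart and was not called in either. Of 5 small subunit proteins at the messenger RNA entry and decoding sites, Mrps24 and Mrps35 were called lower in brain and Mrps35 higher in heart. Mrps12, which has its counterpart at the bacterial decoding centre, stood at 2.57 and 2.87 in brain and 1.43 and 2.51 in kidney and was called in no organ. Mrps11 and Mrpl46, the facing pair, were called in no organ either: Mrps11 was at 0.00 and 1.14 in FFPE and frozen brain and 1.24 and 1.03 in heart, and Mrpl46 at 1.39 and 2.31 and at 2.38 and 2.07.

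Over all tested genes, 26.4% were called lower in brain and 15.9% higher in heart. Of 5 ribosome subunits that do not carry the family name, 0 were called in brain, with a median of -0.42. In heart 2 of them were called higher: Ptcd3, which binds the ribosomal RNA of the small subunit, at 1.36 ± 0.17 (SE, adjusted p = 4.49e-04) and Chchd1, at 2.74 and 3.14 in heart against 1.11 to 2.38 elsewhere (adjusted p = 0.0259). Dap3, a small subunit GTP-binding protein, had levels of 3.05 to 3.90 and was called in no organ.

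Of 14 tested translation factors, 7 were called lower in brain, against 26.4% of all tested genes, with a median of -0.67. In heart 4 were called higher and 1 lower, against 15.9% and 18.1% of all tested genes. Tufm, the elongation factor that delivers transfer RNAs, stood at 1.65 and 2.23 in FFPE and frozen brain, 3.68 and 3.87 in heart, 3.48 and 3.54 in liver, and 3.22 and 3.46 in kidney. Its brain libraries were below all others (-1.60 ± 0.19 SE, adjusted p = 1.73e-04). Gfm1, the elongation factor of translocation, was lower in brain by a fitted log2 of -1.46 and higher in heart by 1.13. Mrrf, which recycles ribosomes, was higher in heart by 1.32, and Gatb, a subunit of the enzyme that makes glutaminyl-tRNA, was lower in brain by a log2 of -1.77. Mtif3, an initiation factor, was called higher in liver (1.24) and lower in brain (-0.65) and heart (-0.76).

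Of 24 assembly factors, 4 were called lower and 1 higher in brain, 1 lower in heart and 1 higher in liver, where Ddx28, a helicase of large subunit assembly, stood 1.24 above the other organs. Each of these shares of the assembly factors was below that of all tested genes. Of 9 genes of mitochondrial RNA synthesis and turnover, 4 were called lower in brain, 1 higher in heart and 3 higher in liver. The shares of all tested genes called these ways were 26.4%, 15.9% and 20.1%, in that order. Twnk, which faces Mrpl43, was lower in brain (-1.51) and higher in liver (0.91). Mrpl43 was called the same way in both, at -0.60 and 0.68. Twnk and Mrpl43 overlap on opposite strands, and strand use in counting is not stated, so reads of the shared stretch may not be told apart. The 2 mitochondrial ribosomal RNAs were called in no organ. Their median difference was -2.01 in brain, 1.49 in heart, 0.76 in liver and -0.24 in kidney. Whether the depletion of ribosomal RNA covered them is not stated. Ribosomal RNA genes still took 50.4% (FFPE brain) to 79.7% (frozen heart) of the counts. The 81 tested nuclear subunits of oxidative phosphorylation were lower in brain and higher in heart as well: 72 were called lower in brain (median -1.24) and 73 higher and 2 lower in heart (median 1.42). Of 82 tested cytosolic ribosomal proteins, 21 were called lower and 4 higher in brain (median -0.35) and 5 higher and 2 lower in heart (median 0.13). The share called lower in brain was near the 26.4% of all tested genes.

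Between preservations no gene of the family was called. FFPE was compared with frozen tissue in the same fit, with the 4 organs as blocks. Of the 78 genes, 0 were called in either direction, as were 0 under each of the other settings tried. Over all tested genes 0.00673% were called higher, and 0% lower. At an unadjusted p under 0.05, 16 of the 78 genes (20.5%) were lower and 0 higher, against 9.86% lower and 8.77% higher over all tested genes. The median difference was -0.33, against -0.07 for all tested genes, and 64 of 78 differences were negative, against 8250 of 14864. FFPE levels were below frozen ones in all 4 organs for 26 genes (33.3%), against 13.7% of all tested genes, and above in all 4 for 0 genes, also against 13.7%.

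Within single organs the size of this difference varied. In brain, 73 of 78 genes were lower in FFPE tissue (median -0.69) and the exact counting interval was below 0 for 54 and above it for 0. In kidney 60 genes were lower (median -0.32), in liver 56 (median -0.23) and in heart 40 (median -0.02). Of all tested genes, 56.0% were lower in brain, 48.5% in kidney, 50.4% in liver and 49.4% in heart. The intervals in heart were below 0 for 15 genes and above it for 13. Such intervals were not computed for genes outside the family. For all tested genes the medians were -0.08 in brain, 0.02 in kidney, -0.01 in liver and 0.01 in heart. These are differences between 1 library and another with no test. Without either brain library, the family stood -0.16 from the median of all tested genes in the FFPE comparison, against -0.26 with them and -0.15 when no filter on low values was used.

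**Figure D5:**
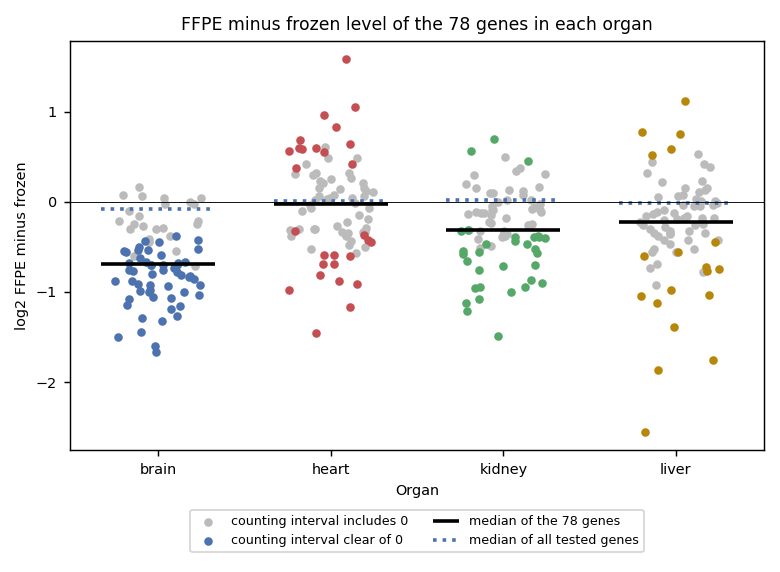
FFPE minus frozen log2 level of each of the 78 genes (points) in each organ, with coloured points where the 95% counting interval is clear of 0. The black line is the median of the 78 genes, from -0.69 in brain to -0.02 in heart, and the dotted line that of all tested genes.

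Mrps33, a small subunit protein found only in mitochondria, had the largest difference of those lower in 4 of 4 organs. Its log2 level in FFPE and then frozen tissue was 0.36 and 1.62 in brain, 0.14 and 0.52 in kidney, 1.07 and 1.45 in heart, and -0.86 and 1.69 in liver. The liver value rests on 3 counts in FFPE tissue against 32, and the fitted difference was -1.15 ± 0.45 (SE, adjusted p = 0.232). Mrps18c was the most even, at -0.98 in liver, -0.94 in kidney, -0.88 in heart and -0.83 in brain, each with a counting interval below 0 (-0.91 ± 0.25 SE, adjusted p = 0.147). Mrpl14 stood at -0.34 in liver, -0.95 in kidney, -0.91 in heart and -1.45 in brain (adjusted p = 0.153). Mrpl52 and Mrpl57 had a fitted difference of -0.85 each and Mrpl20 of -0.77, with adjusted p of 0.179, 0.214 and 0.147. Mrpl37 had the largest difference in the other direction, at 0.30, which rests on heart, where FFPE was 1.05 above frozen tissue (95% counting interval 0.60 to 1.51).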

How the data were processed

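The authors deposited log2 normalized counts, with 1 column per combination of organ and preservation. The values turned out to be log2 CPM, computed with 0.5 added to every count and a library size rescaled per column. Whole counts came back for 100% of values (tolerance 0.001, relative to 10000 counts for larger counts). The submitters' processing notes name HISAT2, featureCounts, limma and the build mm10 without versions. The m6A mark is known from the name of the table only, and the sources used here do not say whether 1 run or both went into a column. Another table with 8 columns matched no listed sample and was not used here. Strand use in counting is not stated.

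An additive limma fit (lmFit, eBayes with a trend; organ and preservation) on the 8 libraries leaves 3 residual degrees of freedom, was fitted on 14864 genes and adjusted by Benjamini-Hochberg. Its p-values measure how alike frozen and FFPE tissue, or the organs, behaved, and not the spread between animals. The fit was also run on simulated data. Counting intervals are exact at 95% and cover counting error only. No exon lengths were at hand, so levels were not compared between genes.

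The members, role lists and tests were chosen with earlier results of these data known. Genes given with full statistics are, for each organ, up to 6 called each way with the largest difference of the same sign in both preservations, for FFPE up to 6 each way of the same sign in 4 organs, members of the role lists, and the 10 nearest profiles, of which 1 is not reported here. Coordinates and promoters are RefSeq's (GRCm38.p6); all 78 genes matched by identifier. Software was limma 3.58.1 in R 4.3.3 and pandas 2.3.3, scipy 1.17.1, numpy 2.4.6 and matplotlib 3.10.9 in Python 3.11.15.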

Additional observations from a re-analysis of the deposited data

Results flagged for a closer look

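For 11 genes, FFPE tissue was above frozen tissue in at least 1 organ and below it in another, with both 95% counting intervals clear of 0. The intervals cover counting error only and were not adjusted for their number. Genes outside the family were not counted this way, so whether 11 is many cannot be said. Each value is a log2 difference of FFPE minus frozen between 1 library and another. Whether the organs differ was not tested, since each organ holds 1 library of each kind.

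Mrps6, which overlaps Slc5a3, had the widest contrast, with 1.58 in heart, -0.70 in brain and -1.49 in kidney. Mrps17 stood at 0.97 in heart, -0.70 in brain, -0.55 in kidney and -1.03 in liver. Mrpl28 stood at 0.56 in heart, -0.92 in brain and -1.39 in liver. Mrpl36, Mrps16 and Mrpl45 were above in heart (0.83, 0.69 and 0.42) and below in brain (-0.77, -0.78 and -0.45). Neuron and glia markers were higher in the frozen than in the FFPE heart library for 9 of 11 genes. Blood and immune markers summed to 190 in FFPE and 37.4 in frozen heart, and hepatocyte markers to 20.7 in FFPE and 364 in frozen brain. The median log2 level of the 6 hepatocyte markers was -2.68 in FFPE and -2.01 in frozen brain. Of these, 5 were called lower and 1 higher in brain, so the sums in brain do not stand for that list as a whole. The part of these markers in the values above was not tested.

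Mrpl18 was above in heart (0.38) and liver (0.59) and below in brain (-0.99) and kidney (-0.39). Mrpl3, a large subunit protein with a bacterial counterpart, was above in heart (0.59) and kidney (0.57) and below in brain (-0.44). Mrpl42 went the other way in heart: it was above in kidney (0.45) and below in brain (-0.70) and heart (-0.59). Mrpl15 was above in liver (0.52) and below in brain (-0.67). Mrps12 was above in liver (0.75) and below in kidney (-1.08).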

How the results depend on the processing

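No paired analysis was possible because the columns carry no run number, and levels per exon length were not run because no lengths were at hand. Scaling by a constant per library left each median relative to all tested genes as it was, but moved counts of calls. With total gene counts, 12 genes were higher and 0 lower in brain, against 8234 and 1558 of all 14864 tested genes. In heart 1 was higher and 2 lower, against 1107 and 3508. In liver 0 were higher and 34 lower, against 1143 and 8628. Mrpl38 (-0.091), Mrpl18 (-0.092) and Mrps10 (-0.096) changed sign in liver. Counts outside ribosomal RNA genes gave 4 higher and 9 lower in brain, against 6502 and 2815 of all tested genes. They gave 2 lower in heart, against 3262, and 15 higher in kidney, against 4326. In liver they gave 0 and 30, against 1630 and 8007. Quantile normalization gave 51 lower in brain, against 4983 of all tested genes, and 29 higher and 0 lower in heart, against 3075 and 2575. In kidney it gave 5 and 2, against 2813 and 2703. The relative median was -0.079 in kidney, beside -0.41 for FFPE. Centring gave 46 lower in brain, against 4866 of all tested genes, and 23 and 0 in heart, against 2819 and 2160. It gave 1 higher in kidney, against 2233, and 21 higher in liver, against 3567.

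Without the filter on low values the relative median was -0.037 in brain, 0.096 in kidney and -0.21 in liver, so the last 2 changed sign, and it was 0.30 in heart and -0.15 for FFPE; 0 genes were lower in heart and 1 higher in kidney. The stricter filter gave 2 lower in heart, against 2254 of 10247 tested genes, and relative medians of -0.10 in kidney and 0.19 in liver. Adding 2 counts gave 2 lower in heart and 1 lower in kidney, against 3167 and 2887 of all 14864 tested genes. No trend gave 0 higher and 1 lower in kidney, against 1913 and 1450 of all tested genes, and 7 higher in liver, against 2562. Voom weights gave 2 higher in brain and 20 higher in heart, against 5129 and 2685 of all tested genes. In kidney they gave 5 and 1, against 2962 and 2137. Quality weights gave 0 lower in heart, against 2465, and 5 and 4 in kidney, against 3135 and 2930. Without both heart libraries, 1 gene was higher in brain and 5 in kidney, against 4497 and 2534 of all tested genes. The relative medians were then 0.12 in kidney, a change of sign, and 0.55 in liver. The cause of these changes was not tested.

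Leaving out each library in turn, 0 to 2 genes were higher and 6 to 31 lower in brain, 6 to 15 higher and 0 to 2 lower in heart, 0 to 4 higher and 0 to 3 lower in kidney, and 2 to 14 higher and 0 to 3 lower in liver. Relative medians ran from -0.88 to -0.51 in brain, 0.28 to 0.77 in heart, -0.097 to 0.023 in kidney (positive without frozen brain, 0.023, or FFPE heart, 0.016) and 0.24 to 0.46 in liver. With 1 library of an organ left, that library is assumed to vary like the others. Counts as low as 3 in FFPE liver limit differences there.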
